A study of Sus scrofa with 8 samples.

Results

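The genes described here make and pack peptide hormones in islet cells: the prohormone convertases PCSK1 and PCSK2, the convertase chaperone SCG5, and the granins CHGA, CHGB, SCG2 and SCG3. They were measured in islets of neonatal pigs on the Affymetrix porcine GeneChip. Members were all probe sets, groups of short probes summarised as 1 intensity, whose annotation gives 1 of 8 listed symbols and no other. This found 7 of the 8 genes with 1 probe set each, out of 6765 genes and 10069 probe sets with 1 symbol among 23999 probe sets other than controls. The carboxypeptidase gene CPE is the eighth. Its probe set lists the symbol against 2 gene records, only 1 of which is in the reference table, so it was left out of the count and is described beside it. All 7 probe sets passed the filter on low values, and each stood at or above the array's 20th percentile on all 8 arrays.

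The arrays held RNA of 4 male Duroc/Large White cross pigs of 3 days and 4 of 7 days of age, with 1 array per pig. All islets were freed with collagenase and kept in the same culture for 7 days, with glucose, nicotinamide and the phosphodiesterase inhibitor isobutylmethylxanthine in the medium at both ages. The intensities are linear and were scaled by the authors to an equal trimmed mean in every array, and the methods provide for another round of RNA amplification at low yield, without saying whether any of these samples had it. A bulk measurement of this kind cannot tell more cells of a type from more RNA per cell. Arrays are named by their deposited age label, because the direction of every one of the 108 probe sets found in the study's supplementary lists is opposite to the one these labels give. PCSK2, listed there as PC2, is the only one of the 7 genes in those lists, which were drawn from these same arrays, so its difference is not independent evidence. Which direction is right was not settled here, and every direction below would turn with the labels. For the probe sets in those lists, the direction under these labels is opposite to the study's.

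Peptide hormones are made as larger precursors and cut inside secretory granules. PCSK1 (also PC1/3) and PCSK2 (PC2) cut after pairs of basic residues, SCG5 (7B2) escorts PCSK2 and delays its activation, and CPE trims the basic residues left at the new end. Granins are acidic proteins that condense the granule contents, are themselves cut into peptides, and are used as markers of neuroendocrine cells.

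PCSK2, SCG3, CHGB, PCSK1 and SCG2 were higher in arrays labelled 7-day-old, by 1.44-fold to 2.16-fold. SCG5 and CHGA did not pass the test, and none was lower. Thus 5 of 7 were higher at an adjusted p under 0.05 (limma, two-sided, Benjamini-Hochberg adjusted over all 21574 probe sets tested), where 5.21% of all probe sets tested were higher, 5.47% were lower and 10.7% differed in either direction. Among the 3191 probe sets at least as bright as SCG3, the dimmest member, 7.55% were higher. The median log2 difference of the 7 was 0.59, beside a median of -0.00078 over all probe sets tested. The 4 values of the 7-day-old label lay above the 4 of the 3-day-old label for 6 of the 7, where 10.9% of all probe sets tested had such a gap, 18.0% of those at least as bright as SCG3, and 10.3% of all had the gap in the other direction. The members were chosen with results of these data known, so these counts describe them and do not test them as a list.

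PCSK2, the convertase that makes glucagon in alpha cells and completes insulin processing in beta cells, had the largest difference of the 7. Its intensity was 2855, 2937, 2273 and 3780 in 3-day-old replicates 1 to 4, and 6595, 6484, 6114 and 5967 in 7-day-old replicates 1 to 4. Every 7-day-old array was above every 3-day-old array, and the 3-day-old arrays were the more spread, with a coefficient of variation of 21.0% beside 4.74%. On the log2 scale PCSK2 differed by 1.11 (standard error 0.152, adjusted p = 0.00775 from limma), a 2.16-fold difference with a 95% interval of 1.69 to 2.76. It passed with any single array left out (adjusted p = 0.00816 to 0.0281). Without both 7-day-old replicates 3 and 4, which lie far apart on the second principal component, it was 1.17 and did not pass (adjusted p = 0.0576).

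PCSK1, which makes the first cuts in proinsulin, had values apart between labels too. The 3-day-old arrays had 8854, 10042, 7861 and 9974, and the 7-day-old arrays 14988, 14857, 12421 and 13046, with no overlap. The log2 difference was 0.59 (standard error 0.117, adjusted p = 0.0217 from limma), or 1.51-fold with a 95% interval of 1.25 to 1.82. PCSK1 lost its call when replicate 1 or 3 of the 3-day-old label was left out (adjusted p = 0.0527 and 0.0541), and likewise for replicate 1 or 2 of the 7-day-old label (0.0612 and 0.064) or for replicates 3 and 4 of that label together (0.0648). The log2 difference was between 0.52 and 0.71 in these settings.

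SCG5 had 17268, 14842, 15534 and 18368 in the 3-day-old arrays and 20838, 20079, 22992 and 19248 in the 7-day-old arrays. The labels did not overlap, but replicate 4 of each label came close to the other label. The log2 difference of 0.34 (standard error 0.103) did not pass over all probe sets (adjusted p = 0.0818 from limma), and its 95% interval ran from 0.09 to 0.58. It passed with an intensity trend and robust variances (adjusted p = 0.013), after quantile normalization (0.0308) and with a stricter filter on low values (0.0314). The CPE probe set had 19500, 19425, 16777 and 21324 against 23178, 23202, 25398 and 22321. Its log2 difference was 0.29 (standard error 0.0987, adjusted p = 0.102, 95% interval 0.06 to 0.52), without overlap. It passed with the intensity trend (adjusted p = 0.0199) and the stricter filter (0.0438).

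**Figure D1:**
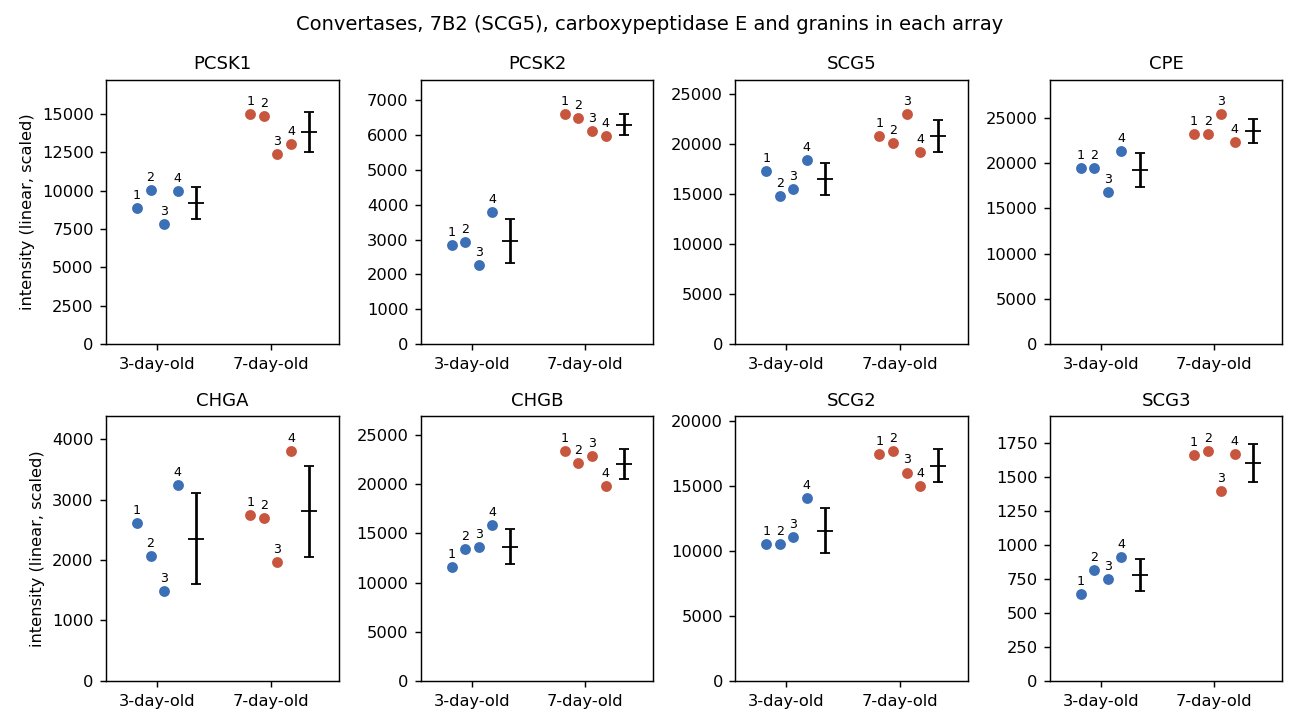
Linear scaled intensity (vertical axes, from 0, a scale for each gene) of PCSK1, PCSK2, SCG5, CPE, CHGA, CHGB, SCG2 and SCG3 in each array, by deposited age label (horizontal axes). Points are arrays numbered by replicate, and the black mark is the mean with the SD of 4 arrays. The labels overlap for CHGA, and for none of the other genes shown.

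Among the granins, SCG3 had the largest difference. SCG3 (secretogranin III) binds CHGA and cholesterol-rich granule membrane. It had 639, 815, 749 and 913 in the 3-day-old arrays and 1658, 1691, 1399 and 1666 in the 7-day-old arrays. All 7-day-old values were above all 3-day-old values, with replicate 3 the lowest of the 7-day-old label. SCG3 differed by 1.05 on the log2 scale (standard error 0.131, adjusted p = 0.00622 from limma), or 2.07-fold. It passed with any single array left out (adjusted p up to 0.0243) and without both 7-day-old replicates 3 and 4 (adjusted p = 0.043), as no other of the 7 did.

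CHGB (chromogranin B, or secretogranin I) was among the brightest probe sets of the array. The 3-day-old arrays had 11560, 13451, 13661 and 15893, and the 7-day-old arrays 23392, 22142, 22890 and 19834. There was no overlap, and replicate 4 was the highest under the 3-day-old label and the lowest under the 7-day-old label. CHGB differed by 0.70 on the log2 scale (standard error 0.117, adjusted p = 0.0135 from limma), or 1.62-fold. It passed with any single array left out (adjusted p up to 0.0431) but not without both 7-day-old replicates 3 and 4 (0.0679).

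SCG2 (secretogranin II), the precursor of secretoneurin, had 10512, 10526, 11086 and 14128 against 17464, 17719, 16057 and 14998. The labels did not overlap, though replicate 4 of each label came near the other label. SCG2 differed by 0.53 on the log2 scale (standard error 0.123, adjusted p = 0.0364 from limma). It passed in only 1 of the 8 settings that leave out an array, the one without 3-day-old replicate 4 (adjusted p = 0.0172). The other 7 gave adjusted p between 0.055 and 0.0958 and log2 differences between 0.48 and 0.57.

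Of the granins CHGA, CHGB, SCG2 and SCG3, only CHGA (chromogranin A), the one most used as a tissue marker, did not pass. It had 2613, 2062, 1485 and 3248 in the 3-day-old arrays and 2751, 2688, 1971 and 3806 in the 7-day-old arrays. The labels overlapped, and only 1 of the 7-day-old arrays was above the highest 3-day-old array. The log2 difference was 0.27 with a standard error of 0.283 (adjusted p = 0.584), and its 95% interval of -0.39 to 0.93 includes the difference of each of the other granins except SCG3. Its spread was wide, with a standard deviation within labels of 0.438 on the log2 scale. This was larger than in 98.5% of the 3191 probe sets at least as bright as SCG3, whose median was 0.121. The other 6 had standard deviations of 0.126 to 0.218. CHGA was lowest in replicate 3 and highest in replicate 4 under both labels, although equal replicate numbers do not pair the pigs.

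The order of arrays within a label was partly shared. Under the 3-day-old label, replicate 4 was the highest array for 6 of the 7 genes and the lowest for none. Under the 7-day-old label, replicate 4 was the lowest for 4 and replicate 3 for 3. The same replicate 3 was the highest 7-day-old array for SCG5, for CPE and for the hormones INS, GCG, SST and PPY. Array quality weights were lowest in these arrays, at 0.748 for replicate 4 of the 3-day-old label and 0.725 and 0.791 for replicates 3 and 4 of the 7-day-old label. The part of these arrays in the results was not tested beyond leaving them out.

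**Figure D2:**
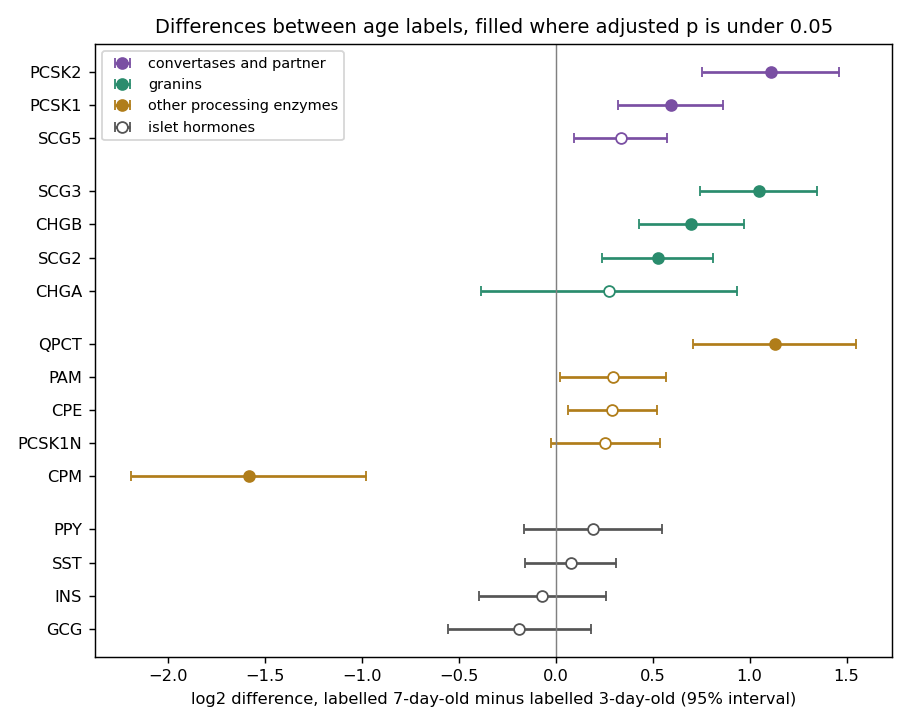
Log2 difference, 7-day-old minus 3-day-old label (horizontal axis), with its 95% interval from limma, 4 arrays per label, for convertases with SCG5, granins, other processing enzymes with CPE, and islet hormones (vertical axis). Filled points passed at an adjusted p under 0.05. The 4 hormones lie on both sides of 0, whereas PCSK2, PCSK1, SCG3, CHGB and SCG2 lie to its right.

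The hormones that these enzymes and granins serve did not pass the test. INS, the insulin precursor, had 24274, 21868, 25266 and 27189 in the 3-day-old arrays and 23448, 21821, 29628 and 19881 in the 7-day-old arrays. The 7-day-old arrays held both the highest and the lowest of these values, with a log2 difference of -0.07 (95% interval -0.40 to 0.26, adjusted p = 0.795). The log2 difference was -0.19 for the glucagon precursor GCG (adjusted p = 0.491, 95% interval -0.56 to 0.18), 0.08 for somatostatin, SST (adjusted p = 0.669), and 0.19 for pancreatic polypeptide, PPY (adjusted p = 0.466). The hormones lay at the 99.8th percentile of mean intensity or above, and the brightest value on each array was between 30895 and 41079. Whether this brightness limited their differences was not tested. IAPP stayed below the 20th percentile of the array in all 8 arrays and was not tested.

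Brightness matters for reading the members too, since PCSK1, SCG2, SCG5 and CHGB had mean intensities of at least 10000, a limit set after the values were seen. Of the 227 probe sets that bright, 8 (3.52%) were higher under the 7-day-old label and 5 (2.2%) were lower, and 9.25% lay above the 3-day-old arrays without overlap. PCSK1, SCG2 and CHGB were 3 of those 8. The median absolute log2 difference was 0.10 among the 227 and 0.265 among all probe sets tested, while the 4 members had a median of 0.56.

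**Figure D3:**
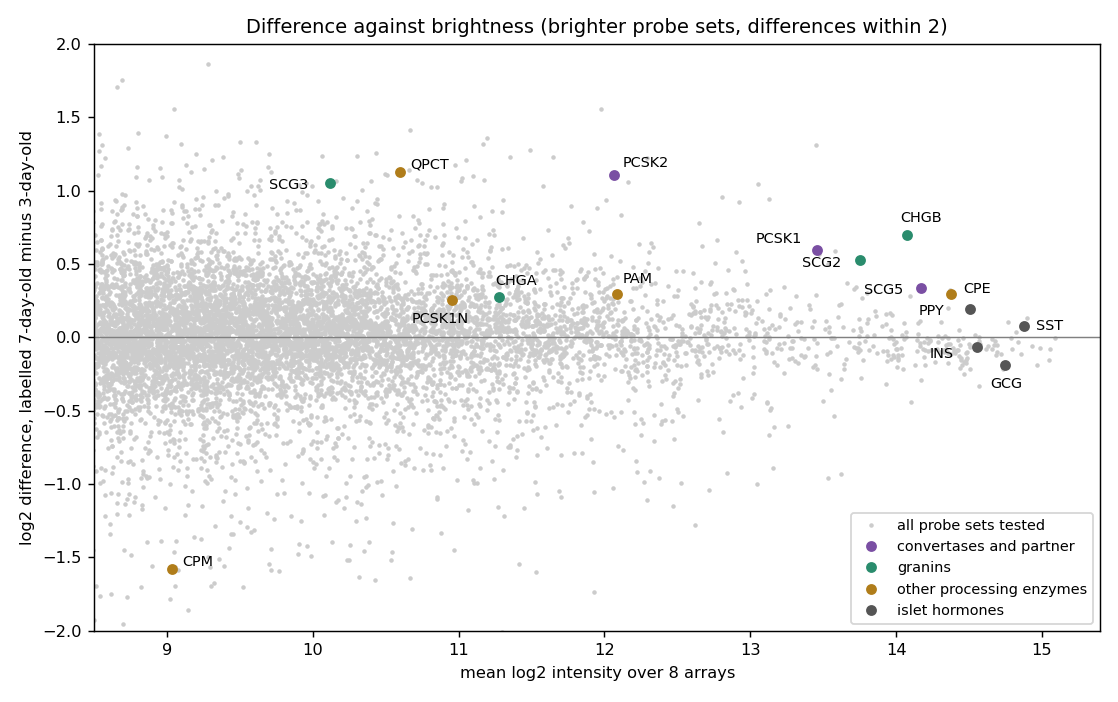
Log2 difference, 7-day-old minus 3-day-old label (vertical axis), against the mean log2 intensity over 8 arrays (horizontal axis), 1 grey point per probe set tested, with the genes of the earlier groups coloured. Dimmer probe sets and differences beyond 2 lie outside the frame. CHGB, SCG2 and PCSK1 lie above most probe sets of like brightness, and the hormones lie at the right end near 0.

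To see whether members changed by unequal amounts, the log2 ratio of paired genes was taken within each array and compared between labels by an exact permutation test (two-sided, 9 pairs). The smallest p that 4 arrays against 4 allow is 0.0286, and with 9 pairs none passed after adjustment. PCSK2 over PCSK1 had a mean log2 ratio of -1.65 ± 0.18 (SD, n = 4) under the 3-day-old label and -1.13 ± 0.08 (SD, n = 4) under the 7-day-old label, a difference of 0.52 (exact permutation p = 0.0286, adjusted p = 0.0514). The level of such a ratio mixes the responses of both probe sets and is not read here. PCSK2 over its chaperone SCG5 differed by 0.77 and PCSK2 over CPE by 0.82. PCSK2 over INS differed by 1.18 and PCSK2 over GCG by 1.30, with any compression of these very bright hormone probe sets not tested. In these 4 pairs, as in PCSK2 over PCSK1, the labels did not overlap, and each had the smallest p that the permutations can give (exact permutation p = 0.0286, adjusted p = 0.0514). All of them have PCSK2, the member with the largest difference, as the upper gene. They are therefore not independent of each other, and the adjusted p rests on these tied values. The pairs were also chosen with earlier results known.

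The granin pairs overlapped between labels. SCG3 over CHGA differed by 0.78 and SCG2 over CHGB by -0.17 (exact permutation p = 0.0571, adjusted p = 0.0643 each). CHGA over CHGB differed by -0.43 (exact permutation p = 0.257), with array values from -3.20 to -2.15 under the 3-day-old label and from -3.54 to -2.38 under the 7-day-old label. PCSK1 over PCSK1N, which encodes the PCSK1 inhibitor proSAAS, differed by 0.34 (exact permutation p = 0.0571, adjusted p = 0.0643).

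**Figure D4:**
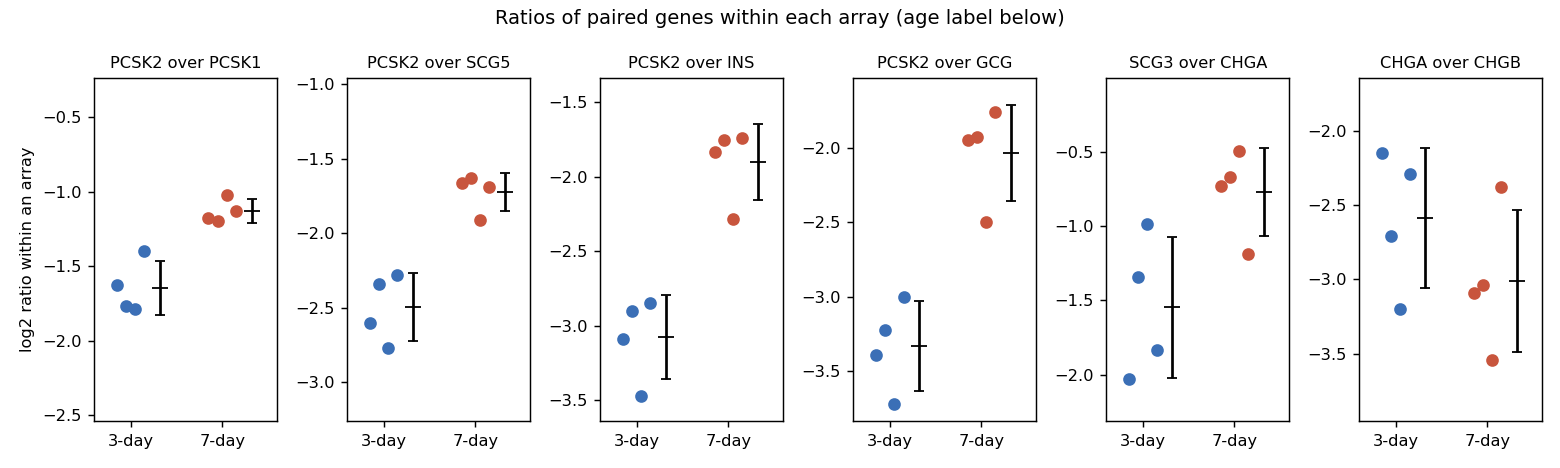
Log2 ratio of 2 genes within an array (vertical axes, 1 panel per pair, equal height of scale) by deposited age label (horizontal axes). Points are arrays, and black marks are the mean and SD of 4 arrays. The labels are apart in the 4 panels of PCSK2 and overlap for SCG3 over CHGA and CHGA over CHGB.

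Other enzymes of precursor processing did not share one direction. Of 9 measured, QPCT alone was higher under the 7-day-old label and CPM alone lower, with a median log2 difference of -0.13, where 5.03% of 6545 genes were higher and 7.15% lower. QPCT, glutaminyl cyclase, which forms the pyroglutamate end of some peptides, was higher. It had 1171, 1126, 788 and 1158 in the 3-day-old arrays and 2532, 2372, 1752 and 2617 in the 7-day-old arrays (log2 difference 1.13, adjusted p = 0.0124 from limma). Both of its other probe sets were dim, above the 20th percentile in only 2 arrays each, and did not pass (adjusted p = 0.9 and 0.657). CPM, a membrane carboxypeptidase outside the granule pathway, was lower, with 985, 1200, 864 and 661 against 317, 268, 449 and 220 (log2 difference -1.58, adjusted p = 0.013). The amidating enzyme PAM differed by 0.30 (adjusted p = 0.149). PCSK1N differed by 0.26 (adjusted p = 0.215). The widely expressed convertase PCSK7 had -0.33 (adjusted p = 0.133), and the carboxypeptidase CPD -0.23 (adjusted p = 0.167). FURIN was not measured by a probe set with 1 symbol.

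Of 15 prohormones and neuropeptide precursors, 2 were higher and 2 were lower, where 5.03% of 6545 genes were higher and 7.15% lower. NUCB2, the nesfatin precursor, differed by 0.45 on the log2 scale (adjusted p = 0.0285). GALP, the galanin-like peptide, differed by 1.08 (adjusted p = 0.0395). NPY, neuropeptide Y, had -1.77 (adjusted p = 0.019), and CARTPT, the CART precursor, -1.69 (adjusted p = 0.0466), with 3-day-old replicate 2 at 2402 and the other 3 of its label at 623 to 821. A second, dim NPY probe set, at or above the 20th percentile in 4 arrays, had -0.59 and did not pass (adjusted p = 0.173). NPY and GALP are also in the study's lists, so they are not independent of it. With 1 array left out, CARTPT lost its call in 7 of 8 settings (all but that without replicate 2 of the 3-day-old label), GALP in 6, NUCB2 in 5 and NPY in 2, and all 4 lost it without both 7-day-old replicates 3 and 4.

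Of 11 other granule and exocytosis proteins measured, 4 were higher and none lower, with a median log2 difference of 0.42. The shares over 6545 genes were 5.03% higher and 7.15% lower. SNAP25, a SNARE of the plasma membrane, had 2380, 3505, 2859 and 3351 in the 3-day-old arrays and 6028, 5734, 5134 and 6009 in the 7-day-old arrays. The log2 difference was 0.93 (adjusted p = 0.00972). GAD2, which makes GABA in beta cells, had 1.14 (adjusted p = 0.0126), and its dimmer probe set 1.00 (adjusted p = 0.0153). The granule GTPase RAB3A had 0.73 (adjusted p = 0.0135). ICA1 had 0.55 (adjusted p = 0.0495) and lost its call in 7 of the 8 settings with an array left out. Its dimmer probe sets had 0.77 (adjusted p = 0.187) and 0.06 (adjusted p = 0.966) and did not pass. Without both 7-day-old replicates 3 and 4, GAD2 alone of these proteins passed. The calcium sensor secretagogin, SCGN, had 0.59 (adjusted p = 0.0738), and the proton pump subunits ATP6V1A and ATP6V1B2, which acidify granules, had 0.42 (adjusted p = 0.1) and 0.27 (adjusted p = 0.102). VAMP2 had 0.11 (adjusted p = 0.771). In all, 10 of the 11 were above 0, and CADPS2 had -0.22 (adjusted p = 0.59).

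Of 6 endocrine transcription factors measured, 1 was higher, where 5.03% of 6545 genes were higher. NEUROD1, which drives endocrine genes, had a log2 difference of 1.39 (adjusted p = 0.00407), but it is also in the study's lists, and its second, dim probe set had -0.19 (adjusted p = 0.89). The others were not called, with NKX6-1 at 0.85 (adjusted p = 0.0519), PDX1 at 0.53 (adjusted p = 0.133) and FOXA2 at 0.35 (adjusted p = 0.0614). CREB1 had 0.06 (adjusted p = 0.805) and ATF4 -0.11 (adjusted p = 0.378), with all 7-day-old arrays of ATF4 below the 3-day-old arrays.

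Beside these differences, markers of other cells of the preparation were lower or not called, and none was higher. For comparison, 7.15% of 6545 genes, each at its brightest probe set, were lower and 5.03% were higher. Of 10 endothelial markers 4 were lower, among them the junction protein PECAM1 (820 ± 89.5 and 253 ± 40.2, SD, n = 4, log2 difference -1.70, adjusted p = 0.00331 from limma), and their summed intensity was 1779 to 2279 in the 3-day-old arrays and 733 to 926 in the 7-day-old arrays. Another of the 4, the dim TIE1, passed the filter only through the 3-day-old arrays (50 to 70, against 2.7 to 9.7). Its log2 difference of -3.41 became -1.75 with an offset of 16, so its size is not read. Of 11 fibroblast and stellate markers 5 were lower, led by the matrix proteoglycan DCN (log2 difference -2.05, adjusted p = 0.0126), with sums of 48719 to 58219 and 36305 to 39696. Of 6 pericyte and smooth muscle markers 3 were lower, led by RGS5 (-1.42, adjusted p = 0.0067), with sums of 3145 to 4153 and 1905 to 2323. Of 7 neural and Schwann markers 4 were lower, led by STMN2 (-1.52, adjusted p = 0.00975), with sums of 7991 to 11992 and 6897 to 8515. Of 10 duct markers KRT19 (-0.83, adjusted p = 0.0148) and MUC1 (-0.61, adjusted p = 0.0401) were lower, with sums of 66942 to 75128 and 60847 to 66467. Of 7 acinar markers the dim CPB1 was lower (-1.56, adjusted p = 0.00787), with sums of 33104 to 38133 and 28032 to 43976. Differences above 0 that did not pass were seen in 3 of the 7. They were CELA1 (0.79, adjusted p = 0.0986), AMY2 (0.52, adjusted p = 0.103) and CLPS (0.40, adjusted p = 0.616). For AMY2 all 7-day-old arrays lay above all 3-day-old arrays. A single call among 7 is not read as a result about acinar cells. None of 8 leukocyte markers passed, with sums of 310 to 830 and 268 to 354. The highest sum was that of 3-day-old replicate 1, where AIF1 had 338. PTPRC, CD4 and CD79B reached the array's 20th percentile in only 1 array each, and CD3E in 5. For such dim probe sets a missing call says little about leukocytes. The 4 measured hormones, the defining markers of the endocrine cells, summed to 92062 to 116539 and 91757 to 125936. All these sums are linear, so the brightest markers weigh most in them. These were CPA1 for acinar markers (means 24090 and 22338), SPP1 and EPCAM for duct markers, and VIM and SPARC for fibroblast markers. None of them passed, so the sums mostly do not show the markers that were called. PECAM1, CDH5, DCN, RGS5, STMN2 and CPB1 are also in the study's lists, drawn from the same arrays, so they are not independent of it. With 1 array left out, the count of lower markers was 2 to 5 of 11 for fibroblast and stellate markers (5 only without replicate 1 of the 3-day-old label, and 2 without any other array), 1 to 4 of 7 for neural and Schwann markers (1 without replicate 3 of either label or replicate 2 of the 7-day-old label, 4 only without replicate 4 of the 3-day-old label, and 2 otherwise), and 2 to 4 of 10 for endothelial markers (2 only without replicate 2 of the 7-day-old label). It was 1 or 2 for duct markers, where MUC1 lost its call in 6 of 8 settings, 1 or 2 for acinar markers and 3 throughout for pericyte markers. Without both 7-day-old replicates 3 and 4 it was 1 for fibroblast, neural and duct markers, 2 for endothelial and pericyte markers and 0 for acinar markers. The part of cell composition in the members' differences was not tested.

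The genes most like each member were sought among those at or above the array median in every array, by the mean absolute difference of centred log2 values over the 8 arrays. This is a description, since the age label makes up much of each pattern. SCG3 lay nearest to SNAP25 (mean absolute difference 0.063). PCSK2 lay nearest to C4BPB (0.090), followed by KCNB2, a voltage-gated potassium channel (0.101). PCSK1 lay nearest to TOMM22 (0.056), SCG2 to FANCF (0.062), CHGB to HSPA2 (0.071) and SCG5 to ATP6V0D1, a subunit of the proton pump (0.034). CHGA lay nearest to ATP13A2, at 0.154. Among the members themselves and CPE, SCG5 and CPE were nearest (0.055), then SCG2 and CHGB (0.095), and PCSK2 and CHGA were farthest apart (0.452).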

How the data were processed

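Total RNA of cultured islets was amplified, labelled with biotin and hybridised to pig Affymetrix GeneChip arrays, 1 per pig. The deposited values are linear intensities that the authors scaled alike, since the mean after trimming 2% at each end was 500.1 in every array. No source names the software that summarised the probes, and a normalization to each probe set's median, stated in the methods, is not in these values. Age and replicate number came from the sample titles.

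Intensities below 1 were set to 1 (1528 values) and put on the log2 scale. Of 24123 probe sets, 124 controls were left out, and the 21574 at or above the 20th percentile of at least 1 array were tested with limma 3.58.1 in R 4.3.3 (lmFit, eBayes, two-sided, Benjamini-Hochberg adjusted, threshold 0.05, no covariates), after a test on simulated data. Ratios of paired genes were compared by exact permutation over all splits of the arrays, and their p-values were adjusted with scipy 1.17.1. Members were found by the symbol of the platform annotation, where 198 probe sets with several symbols were left unnamed. For the lists, the 6545 genes and the nearest genes, symbols were updated by gene record from the reference table where it gave a named gene. Lists were read at each gene's brightest probe set.

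The members, lists and pairs were chosen with earlier results of these data known. The text names every member, up to 4 genes of each list with the largest difference past the threshold, a few fixed genes (hormones, NEUROD1, PCSK1N, PAM, FURIN) and genes nearest to a member. PCSK7, CPD, SCGN, ATP6V1A, ATP6V1B2, NKX6-1, PDX1 and FOXA2 were named after their values were seen. So were VAMP2, CADPS2, CREB1, ATF4, CELA1, AMY2 and CLPS. Alternatives were no filter, a stricter filter (50th percentile in 4 arrays), the methods' t-test, an intensity trend with robust variances, median centring, quantile normalization, array weights, an offset of 16, a block on replicate number, leaving out arrays in turn, the mean of a gene's probe sets, adding CPE and, chosen after seeing the data, leaving out 7-day-old replicates 3 and 4 together. The limma p-values set the difference between labels against the spread between arrays of a label. With 1 array per pig, that spread cannot be split into parts from pig, islet preparation and array.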

Additional observations from a re-analysis of the deposited data

Results flagged for a closer look

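In 4 of 90 groups of 4 arrays, over 45 named genes, 1 array lay far from the other 3 on the log2 scale by Dixon's test, which chance gives in about 5% of groups. SCG3 had an intensity of 1399 in 7-day-old replicate 3, with the other 3 of that label at 1658 to 1691. QPCT had 788 in 3-day-old replicate 3, with the others at 1126 to 1171. GCG had 27308 in 3-day-old replicate 2, with the others at 29868 to 30272. RAB3A had 508 in 7-day-old replicate 3, with the others at 558 to 568.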

How the results depend on the processing

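The count of members higher in arrays labelled 7-day-old, 5 of 7, was between 3 and 5 when 1 array was left out and 1 without both 7-day-old replicates 3 and 4, where PCSK2, PCSK1, CHGB and SCG2 were lost and every sign was kept. It was 3 when the array left out was number 1 or 3 of the 3-day-old label, or 1 or 2 of the 7-day-old label. With the replicate block it was 0 (6 at an unadjusted p under 0.05). The count of other pathway and endocrine genes that were higher, 8 of 41, was 13 with an intensity trend and robust variances, 0 with the replicate block, 3 without both 7-day-old replicates 3 and 4, and 5 to 9 with 1 array left out. The number of all probe sets called was 2305. It was 3491 with the trend, 0 with the replicate block (5264 at an unadjusted p under 0.05), 488 without both arrays and 1008 to 1854 with 1 array left out. Equal replicate numbers share only a number, with residual correlations of -0.0135 to 0.00487, so the block was not used. The differences of the 9 pairs kept their sign under each alternative run. With 1 array left out the pairs were not tested, and with 4 arrays per label and 9 pairs the adjusted p could hardly pass, so the pairs say nothing about stability. INS, at -0.07, ranged from -0.18 to 0.010 with 1 array left out and was above 0 only without replicate 4 of the 7-day-old label (adjusted p = 0.976). The cause of these changes was not tested beyond the smaller number of arrays. The number of arrays limits what could be detected, and whether the brightest probe sets were compressed was not tested.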
